A study of Homo sapiens with 16 samples.

Results

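The genes described here are those whose level in Caco-2 cells lay below the medium control after both digests used in the study. One digest was gliadin cut by pepsin and trypsin (PT-G), and the other was a blank of these enzymes that held no substrate (PT). They were found as 87 of the 41000 probes of the array, which measure 80 genes. A probe was taken when all 8 PT and PT-G arrays lay below all 4 medium arrays (MED-CTL) in the deposited log2 values, the mean of both digests lay at least 0.6 log2 units under MED-CTL, the spot was well above background on every MED-CTL array, and the probe had a gene name of its own that did not start with ZNF. Probes without any overlap numbered 424, of which 138 also met the limits on size and background. The name limits then left out 31 probes without a gene name and 20 ZNF probes. The members were thus chosen by the values of PT, PT-G and MED-CTL, which are given as a description, without a test. The values of cells exposed to the gliadin peptide p31-43 were not used. The difference between PT-G and PT was no criterion, but genes lowered by only 1 of the digests could not become members.

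Caco-2 is an epithelial line from a human colon carcinoma, and the cells were stimulated for 6 h while undifferentiated. The 4 conditions were MED-CTL (cells kept in medium with fetal calf serum), the synthetic peptide p31-43 at 150 µg/ml, PT (blank digest, its enzymes inactivated by heat) and PT-G (gliadin digested in that way), with 4 single-colour arrays each. All stimulants were dissolved in that medium, the doses of PT and PT-G are not given in the sources used here, and the arrays of a condition came from 4 independent experiments on 1 cell line that lay a few passages apart. The arrays fell into 4 runs by a date code that the scanner files carry, and what was done on that date is not given in the sources used here. Each run held 1 array of every condition. Runs 1 and 2 lay on 1 slide each and runs 3 and 4 shared 3 further slides. Run and replicate numbers were the same except in MED-CTL, where replicate 2 belonged to run 1 and replicate 1 to run 2.

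The members have no single function. Several belong to canonical WNT signalling, in which a secreted ligand binds a Frizzled receptor, beta-catenin reaches the nucleus, and target genes such as AXIN2, a feedback inhibitor, are transcribed. This pathway maintains the crypt cells of the intestine and is active in most colon carcinomas. Others are known from the handling of sugar, lipid, zinc and foreign compounds, from chromatin and RNA synthesis, and from the primary cilium and the centrosome. The median difference between p31-43 and MED-CTL over the 87 probes was -0.033 log2 units, and 77 of the 87 lay within 0.2 log2 units of MED-CTL. Over all 40982 probes tested the median was -0.00321, with quartiles of -0.083 and 0.080. Over the members the quartiles were -0.11 and 0.047, so differences this small were common on the whole array. MED-CTL arrays entered the choice of the members as the higher group, so that their p31-43 difference leans toward lower values by choice.

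The arrays had median raw intensities of non-control spots between 153 and 410 over a local background of 48 to 65, and between 27660 and 33947 spots well above background. All 8 epithelial markers examined, among them CDH1, KRT8 and VIL1, were above background on every array. Of 13 markers of fibroblasts, leukocytes and endothelial cells, 7 were above background on all 16 arrays and 4 on none, among them COL1A2, PTPRC and CDH5. Fewer cells and less RNA per cell cannot be told apart in such samples. In MED-CTL the members had mean levels between 7.40 and 14.63 log2 units with a median of 10.52, and all 87 were above background on every array of MED-CTL, p31-43 and PT-G. On the PT arrays this held for 82, and PRKCQ, FLJ23577 (SPEF2), CACNA2D4, LOC285749 and CIRBP were above background on 3 of 4. Gene names are those of the array, with the current RefSeq symbol in brackets where it differs. Array values are given in log2 intensity in the order of replicates 1 to 4, and differences in log2 units.

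**Figure D1:**
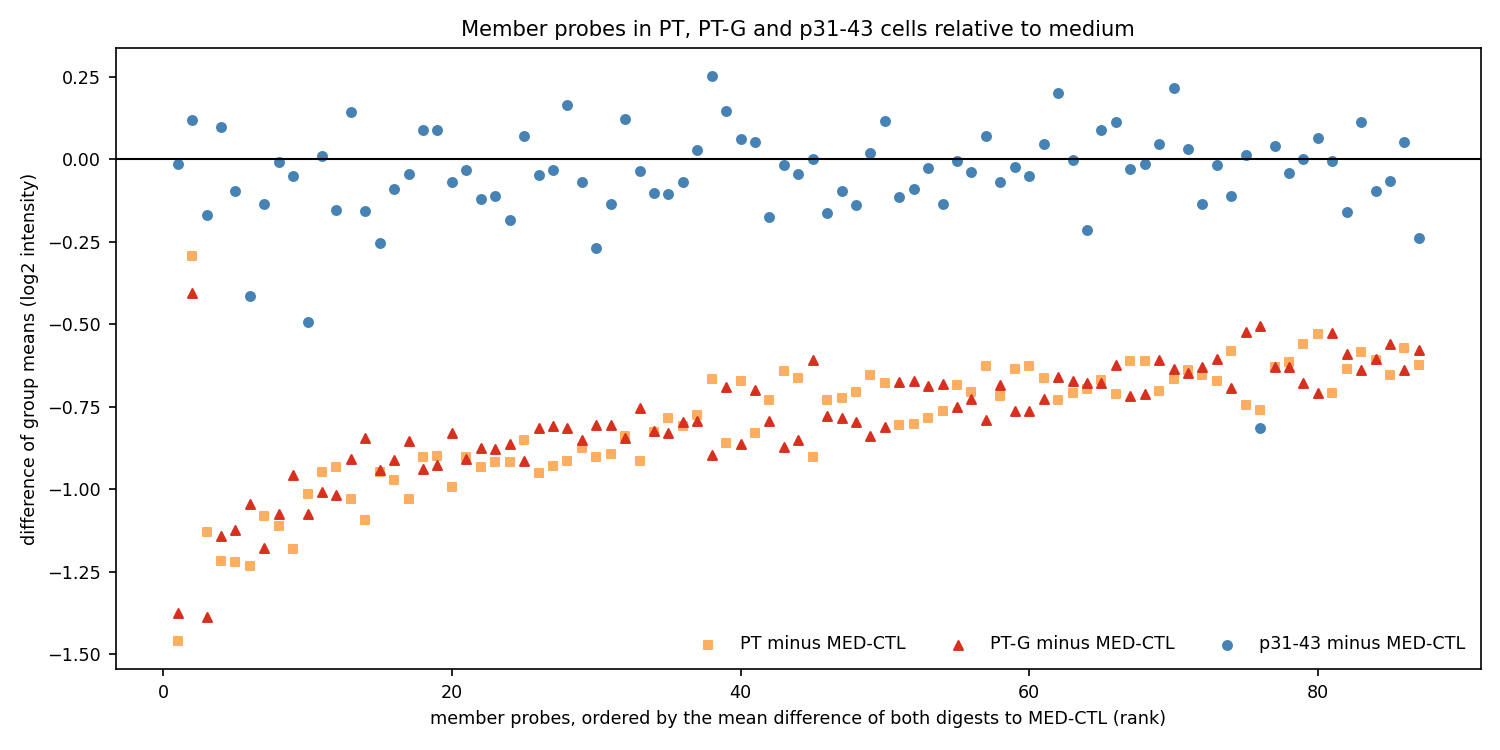
Difference of group means to MED-CTL (log2 intensity, y axis) of the 87 member probes in order of the mean difference of both digests (x axis), where C3orf31 (TAMM41), at place 2, was ordered with a spot marked as an outlier and is plotted without it. Squares (PT) and triangles (PT-G) run close together and carry the rule's choice, and the p31-43 points lie around 0 except NLF2 at -0.82, CYP1A1 at -0.49 and WNT6 at -0.41.

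Among genes of redox and xenobiotic metabolism, TXNIP showed the largest difference of the members with an assigned role. TXNIP is an arrestin-like protein that binds thioredoxin and limits glucose uptake. Its MED-CTL arrays read 13.39, 13.92, 13.51 and 13.28, the PT arrays 12.41, 12.69, 12.32 and 12.16, the PT-G arrays 12.28, 12.23, 11.95 and 12.08 and the p31-43 arrays 13.49, 13.37, 13.34 and 13.23. The p31-43 arrays overlapped those of MED-CTL and lay above every digest array, and the PT-G arrays reached from within the PT range to below it. Both digests together left 0.418 times the MED-CTL level, with differences of -1.13 for PT and -1.39 for PT-G. CYP1A1, the cytochrome P450 induced through the aryl hydrocarbon receptor, read 13.04, 13.47, 13.19 and 13.30 in MED-CTL, 12.39, 11.88, 12.48 and 12.19 in PT and 12.66, 12.26, 11.95 and 11.82 in PT-G. Its p31-43 arrays spread widely at 13.43, 12.74, 11.84 and 13.02, from the MED-CTL range down into that of the digests. The p31-43 difference of -0.49 ± 0.28 (SE, n = 4 arrays per group) had a nominal p of 0.0977 and an adjusted p of 1.00 in limma. NOXO1, which organises the NADPH oxidase of the colon epithelium, gave 9.19, 9.03, 8.61 and 9.20 in MED-CTL, 7.83, 8.56, 7.53 and 7.73 in PT, 8.10, 8.50, 7.75 and 8.30 in PT-G and 8.68, 9.39, 8.04 and 9.30 with p31-43. Replicate 3 was the lowest array of NOXO1 in every condition, and p31-43 replicate 3 lay inside the digest range.

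The promoters of 4 members are shown, 2 each from redox and xenobiotic metabolism and from WNT signalling, because the motifs searched include those known from these pathways, with capitals for every match of the motifs searched on either strand. These motifs were CACGTG (the E-box bound by carbohydrate response factors), CTTTGAT (the TCF site), GCGTG (the core bound by the aryl hydrocarbon receptor), CCAAT (the box bound by NF-Y), TATAAA (the box near many starts), GGGCGG (the GC box), TGACGTCA (the cAMP response element) and CCGGAAG (the ETS site). Each sequence runs 5′ to 3′ on the gene's strand from 250 bases before to 50 bases after a RefSeq start (GRCh38.p14). The starts are on chromosome 1, minus strand, for TXNIP (chr1:145996530-145996829), chromosome 2, plus strand, for WNT6 (chr2:218859555-218859854), chromosome 7, plus strand, for FZD1 (chr7:91264183-91264482) and chromosome 15, minus strand, for CYP1A1 (chr15:74725479-74725778).
TXNIP: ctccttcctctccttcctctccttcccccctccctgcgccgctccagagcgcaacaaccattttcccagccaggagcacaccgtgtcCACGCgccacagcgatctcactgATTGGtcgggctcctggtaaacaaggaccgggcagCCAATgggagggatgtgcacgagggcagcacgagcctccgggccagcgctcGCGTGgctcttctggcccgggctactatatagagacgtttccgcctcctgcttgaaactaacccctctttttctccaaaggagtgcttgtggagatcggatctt
WNT6: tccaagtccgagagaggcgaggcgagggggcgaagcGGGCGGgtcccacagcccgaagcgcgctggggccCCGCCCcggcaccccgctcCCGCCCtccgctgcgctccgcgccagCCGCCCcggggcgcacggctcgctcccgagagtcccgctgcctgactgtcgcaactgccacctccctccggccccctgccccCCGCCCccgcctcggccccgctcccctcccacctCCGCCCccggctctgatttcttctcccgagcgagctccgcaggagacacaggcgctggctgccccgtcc
FZD1: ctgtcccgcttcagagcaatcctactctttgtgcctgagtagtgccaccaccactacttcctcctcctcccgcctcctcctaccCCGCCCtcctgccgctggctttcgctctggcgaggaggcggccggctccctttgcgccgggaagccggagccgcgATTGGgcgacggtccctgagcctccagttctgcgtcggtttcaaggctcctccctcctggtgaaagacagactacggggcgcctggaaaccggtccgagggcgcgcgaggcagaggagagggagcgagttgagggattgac
CYP1A1: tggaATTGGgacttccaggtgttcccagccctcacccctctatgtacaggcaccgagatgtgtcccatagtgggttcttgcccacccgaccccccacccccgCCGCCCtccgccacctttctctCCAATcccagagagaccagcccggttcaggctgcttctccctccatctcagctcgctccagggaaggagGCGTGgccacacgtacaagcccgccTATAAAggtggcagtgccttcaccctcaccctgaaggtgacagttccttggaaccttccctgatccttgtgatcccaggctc
The windows of TXNIP, WNT6, FZD1 and CYP1A1 held 4, 6, 2 and 5 matches. All 6 of WNT6 were GC boxes, and CYP1A1 alone of the 4 had TATAAA with its first base at position -32 from the start. The strings CACGTG and CTTTGAT did not occur in these 4 windows. Other forms of the E-box and the TCF site were not searched, so their absence is not shown. The table held 72 starts of 51 member genes. A GC box was found in 68.1% of them, in 45.0% of all 35116 starts and in 63.9% of the 11998 starts of genes above background in MED-CTL. For GCGTG the shares were 45.8%, 36.5% and 46.5%. For CCAAT they were 29.2%, 34.6% and 34.2%. The ETS site was found in 6.94% of member starts, 10.3% of all starts and 15.2% of those of genes above background. For TATAAA the shares were 9.72%, 11.5% and 7.17%, and for CACGTG 4.17%, 7.26% and 9.01%. CTTTGAT occurred in 2.78%, 2.62% and 1.54%. The cAMP response element was in none of the member starts and in 1.85% of all starts. None of the motifs contains another, partial overlap was allowed, and a match is a string of letters, not a bound site.

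WNT signalling held 4 members with 5 probes. WNT6, a secreted ligand, had MED-CTL arrays at 11.13, 11.79, 12.05 and 11.42, PT arrays at 10.25, 10.08, 10.53 and 10.61, PT-G arrays at 10.51, 10.49, 10.90 and 10.32 and p31-43 arrays at 11.41, 10.95, 11.10 and 11.28. Its p31-43 arrays lay above every digest array and overlapped the lower end of the MED-CTL range. The difference of -0.41 ± 0.19 (SE, n = 4 arrays per group) between p31-43 and MED-CTL had a nominal p of 0.0489 and an adjusted p of 1.00 in limma. A brighter probe of WNT6 did not share the difference. Its means were 0.69 for PT and -0.54 for PT-G relative to MED-CTL, beside an SD of 2.62 over the MED-CTL arrays. FZD1, a receptor for WNT ligands, read 9.15, 9.34, 9.90 and 9.18 in MED-CTL, 8.27, 8.28, 8.54 and 8.60 in PT, 8.17, 8.23, 8.96 and 8.57 in PT-G and 9.17, 9.13, 9.62 and 9.31 with p31-43. AXIN2 read 12.03, 12.34, 12.61 and 12.36 in MED-CTL, 11.75, 11.39, 11.30 and 11.46 in PT, 11.72, 11.45, 11.95 and 11.48 in PT-G and 12.60, 12.16, 12.91 and 12.27 with p31-43. The highest AXIN2 values of the experiment were those of p31-43 replicates 1 and 3 and MED-CTL replicate 3. The dimmer AXIN2 member probe differed by -0.93 for PT, -0.81 for PT-G and -0.03 for p31-43. An AXIN2 probe outside the members, at 7.31 in MED-CTL with an SD of 0.65, differed by -0.26, -0.38 and 0.32. Its digest arrays overlapped those of MED-CTL. ASCL2, a transcription factor of crypt stem cells and itself a WNT target, had MED-CTL arrays at 14.02, 14.04, 13.59 and 13.54. They compared with 12.96, 12.85, 12.81 and 12.91 in PT and 13.07, 12.83, 12.92 and 13.11 in PT-G, the narrowest digest groups among these 4 genes, and with 14.13, 14.02, 13.81 and 13.90 with p31-43. FZD1, AXIN2 and ASCL2 had p31-43 differences of -0.09, 0.15 and 0.17. Dimmer probes outside the members differed by -0.53 (PT) and -0.52 (PT-G) for ASCL2 and by -0.19 and -0.19 for FZD1, with overlap.

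Of the 32 WNT receptors, feedback inhibitors and targets on a list for this pathway, which leaves out the ligands, 3 were members and 29 were not. Among the 29, none was lower and 1 higher at a nominal p under 0.01 between PT and MED-CTL, where 1.88% of all probes were lower and 1.76% higher. Between PT-G and MED-CTL none was lower and 2 were higher, beside 1.51% and 1.91% of all probes. The one that rose in both was FZD9, by 0.61 (PT) and 0.55 (PT-G), with adjusted p-values of 0.0102 and 0.0168 in limma. MYC differed by 0.70 for PT and 1.07 for PT-G, with adjusted p-values of 0.399 and 0.103 in limma. The medians of the 29 were -0.017 and 0.028, close to those of all probes at -0.012 and -0.0056. Both digest means were lower than MED-CTL in 12 of the 29 and higher in 12. The 3 members, low by the rule, had been taken off the list, while the values of all probes include members. The counts and medians of the 29 thus do not describe the whole list.

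**Figure D2:**
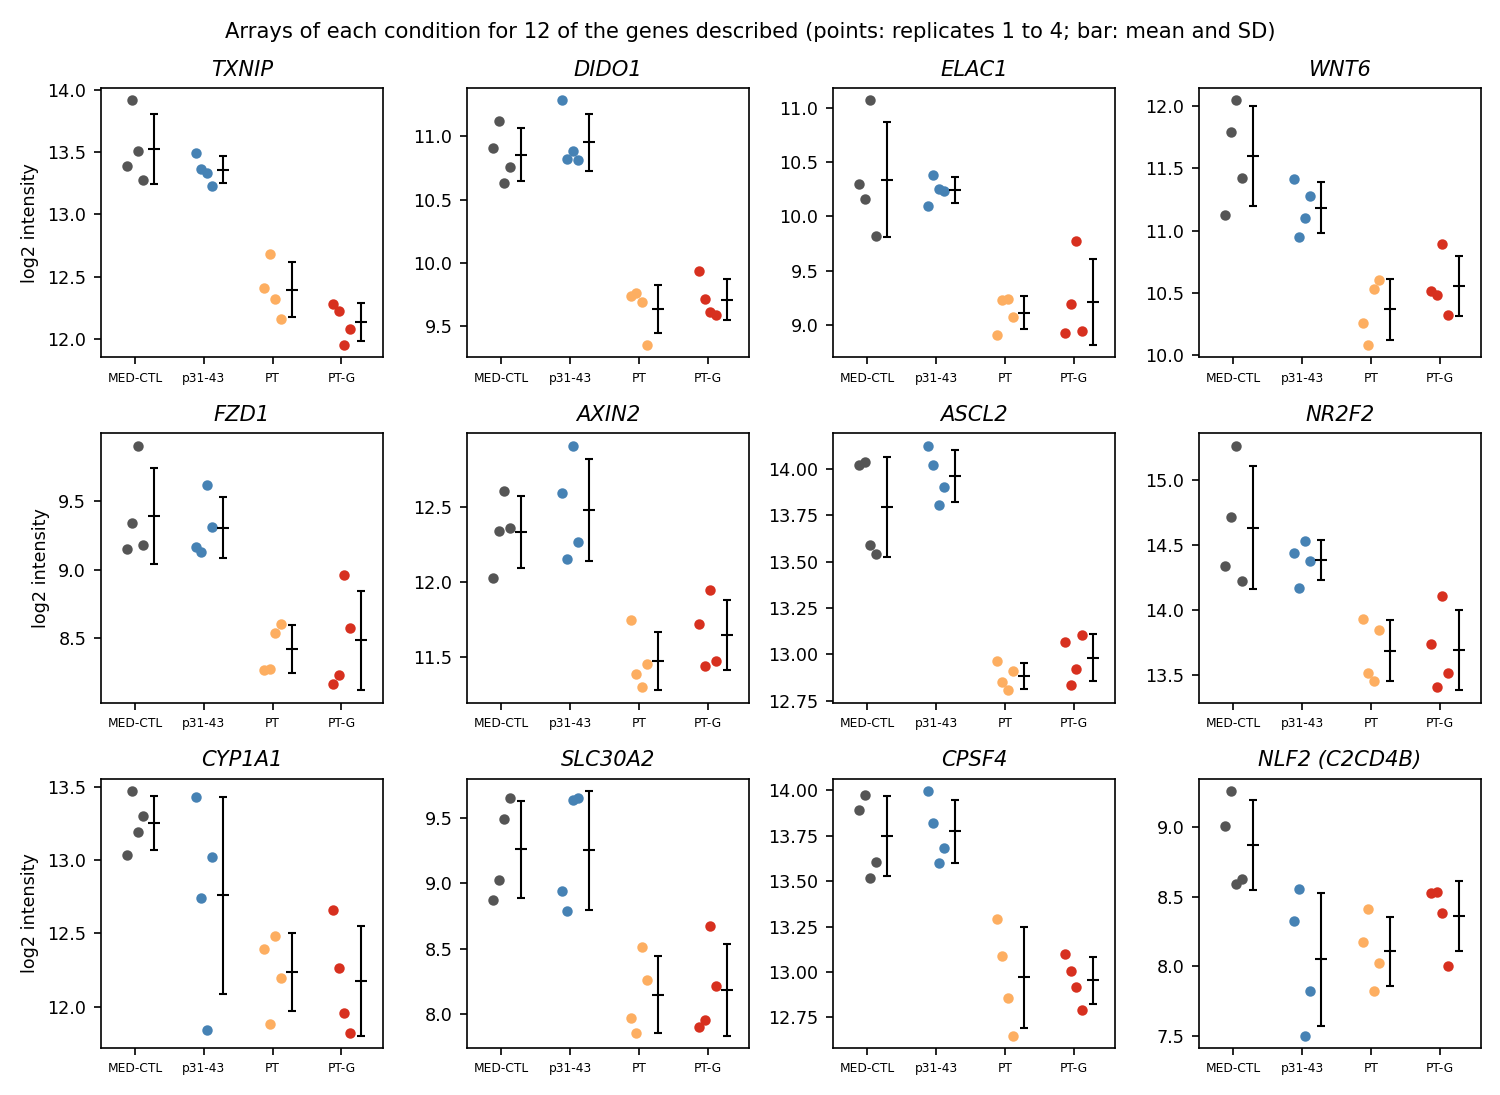
log2 intensity (y axis) on every array of 12 of the genes described, by condition (x axis), with the mean and SD of each group. In 10 of the 12 the p31-43 arrays stay above all PT and PT-G arrays, and CYP1A1 and NLF2 are the exceptions. This held for 70 of the 87 members and 1.57% of all probes, and the digest arrays are those the rule chose to be low.

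Transcription factors made up 9 member genes with 11 probes. NR2F2 (COUP-TFII), an orphan nuclear receptor, read 14.34, 14.71, 15.27 and 14.22 in MED-CTL, 13.93, 13.51, 13.45 and 13.85 in PT, 13.74, 13.40, 14.11 and 13.51 in PT-G and 14.44, 14.17, 14.53 and 14.38 with p31-43. MED-CTL replicate 3 was the highest array of this gene. Its other member probe differed by -0.63 and -0.79 for PT and PT-G and by 0.07 for p31-43. KIAA1285, now the zinc finger gene ZNF777, read 13.70, 13.83, 14.26 and 13.79 in MED-CTL, 12.53, 12.75, 12.77 and 12.81 in PT, 12.69, 12.81, 13.36 and 12.88 in PT-G and 13.84, 13.75, 13.98 and 13.80 with p31-43. Its second probe differed by -1.03 and -0.85 for the digests and by -0.05 for p31-43. ZNF777 and C14orf131 (ZNF839) are zinc finger genes that the name limit kept because the array uses older names. The other factors included NFE2 (an erythroid bZIP factor, -0.90 for PT and -0.93 for PT-G), TLX2, OSR2, C14orf115 (VRTN) and C14orf131. Over the 11 probes the p31-43 differences lay between -0.25 and 0.09.

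On a list of 30 nuclear receptors NR2F2 was the only member. Among the other 29, RXRB was the gene lower at a nominal p under 0.01 in both comparisons, by -0.69 (PT) and -0.69 (PT-G), and adjusted p-values of 0.269 and 0.277 in limma did not pass. PPARA and the circadian repressor NR1D1 were higher in both, PPARA by 0.90 and 0.91 with adjusted p-values of 0.00481 and 0.00411. NR1D1 differed by 1.30 and 1.49 with adjusted p-values of 0.0590 and 0.0282. RARG had nominal p-values of 0.0134 for PT and 0.00603 for PT-G, at 0.37 and 0.43.

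Over the 9 lists, 194 measured genes were not members. At a nominal p under 0.01, 19 of them were lower and 11 higher with PT, 16 lower and 13 higher with PT-G, where 1.88% and 1.76% of all probes were lower and higher with PT and 1.51% and 1.91% with PT-G, and none differed between p31-43 and MED-CTL or between PT-G and PT. At an adjusted p under 0.05 (limma) 6 were lower and 5 higher with PT, beside 0.395% and 0.434% of all probes, and 2 were lower and 8 higher with PT-G, beside 0.346% and 0.583%. The lists were drawn up with earlier results of these data known. Of the 194 genes 187 were above background on all MED-CTL arrays, while all probes include dim ones. Where a list held members, these were taken off it, while the shares of all probes include members. The rule thus reduces the counts of lower genes among the non-members. The counts on each list are a description and not a test.

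The arrestin relatives of TXNIP and the genes that respond to sugar did not move as 1 group. Of the 11 non-members on that list, ARRDC3, an arrestin-domain protein, was lower by more than TXNIP in the means, at -1.52 for PT and -1.52 for PT-G, with adjusted p-values of 0.0750 and 0.0732 in limma that did not pass. In the opposite direction PFKFB3, an activator of glycolysis, rose by 0.45 and 0.58, and KLF10 rose by 0.93 and 1.23. For these 2 the adjusted p-values were 0.00833 and 0.0229 for PT and 0.00146 and 0.00386 for PT-G. ARRDC2 was higher at a nominal p under 0.01 in both, by 0.91 and 0.80, without an adjusted p under 0.05. In the list of the aryl hydrocarbon receptor and its targets, CYP1B1 was lower like CYP1A1, by -1.20 and -1.01 at adjusted p-values of 0.100 and 0.194. The receptor AHR was higher by 0.77 and 0.90 (adjusted p 0.0566 and 0.0230 in limma), and its target TIPARP by 0.59 and 0.54 (adjusted p 0.0258 and 0.0355). AHRR, the repressor of the receptor, was higher at a nominal p under 0.01 in both, by 0.40 and 0.51, and passed no adjusted threshold. With p31-43 CYP1B1 differed by -0.65 at a nominal p of 0.0499 in limma, so that CYP1A1 and CYP1B1 lay on the lower side there. The further cytochrome of the list, CYP1A2, did not, and differed by 0.40 for PT, 0.20 for PT-G and 0.0043 for p31-43.

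Chromatin factors held 4 member genes. DIDO1, a PHD finger protein, read 10.91, 11.12, 10.63 and 10.76 in MED-CTL, 9.74, 9.76, 9.69 and 9.35 in PT, 9.93, 9.71, 9.61 and 9.59 in PT-G and 11.29, 10.82, 10.88 and 10.81 with p31-43. The digest arrays and the other arrays of this probe were separated by more than the whole range within any condition. The further probes of DIDO1 gave another picture, with the brightest higher in both digests by 0.71 and 0.81, and the others at -0.18 and -0.34, and -0.15 and 0.12. Which transcripts these probes read was not examined, and the difference belongs to 1 probe rather than to the gene. SUV420H1 (KMT5B), a methyltransferase of histone H4 lysine, read 11.92, 12.20, 12.46 and 11.67 in MED-CTL, 11.60, 11.17, 10.87 and 10.63 in PT, 11.39, 11.25, 11.65 and 10.65 in PT-G and 12.26, 11.84, 12.28 and 11.59 with p31-43. Here too another pair of probes differed, at -0.06 and 0.19, and -0.10 and 0.19. JMJD5 (KDM8), a JmjC oxygenase, read 8.24, 8.51, 8.44 and 8.00 in MED-CTL, 7.83, 7.70, 7.52 and 7.22 in PT, 7.90, 7.68, 7.52 and 6.92 in PT-G and 8.37, 8.08, 8.16 and 7.88 with p31-43. RCCD1, a protein known to bind KDM8, was a member with both of its member probes, the brighter at -0.81 and -0.67. Among 26 non-members of the list for histone modification and the NuA4 acetyltransferase, BRD8, EPC2, ING3 and ING4 were lower at a nominal p under 0.01 in both digests and none was higher, beside 1.88% (PT) and 1.51% (PT-G) of all probes lower. Of these, ING4 was lower by -0.45 and -0.55 with adjusted p-values of 0.0483 and 0.0148 in limma, and EPC2 by -0.62 and -0.44 with 0.00809 and 0.0522. The list was drawn up with earlier results of these data known, so its counts beside all probes are no test.

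RNA synthesis and processing held 7 members, 6 of them on a list of 30 such factors. CPSF4, which recognises the polyadenylation signal, read 13.89, 13.97, 13.52 and 13.61 in MED-CTL, 13.29, 13.09, 12.86 and 12.65 in PT, 13.10, 13.01, 12.92 and 12.79 in PT-G and 14.00, 13.82, 13.60 and 13.68 with p31-43. POLR3B, the second largest subunit of RNA polymerase III, read 11.18, 11.02, 11.65 and 10.95 in MED-CTL, 10.50, 10.52, 10.40 and 10.51 in PT, 10.43, 10.50, 10.87 and 10.27 in PT-G and 11.03, 11.06, 11.60 and 10.85 with p31-43. In both genes the ranges of the MED-CTL and p31-43 arrays overlapped for most of their length. UBTF, the upstream binding factor of ribosomal RNA genes, read 10.46, 10.33, 10.08 and 10.05 in MED-CTL, 9.79, 9.75, 9.16 and 8.90 in PT, 9.79, 9.78, 9.98 and 8.59 in PT-G and 10.33, 10.21, 10.74 and 9.88 with p31-43. Replicate 4 was the lowest array of UBTF in every condition. DCP1B, a cofactor of mRNA decapping, read 11.89, 11.83, 12.00 and 11.22 in MED-CTL, 10.87, 11.08, 10.86 and 11.21 in PT, 10.96, 11.08, 11.05 and 10.74 in PT-G and 11.57, 11.75, 11.56 and 11.41 with p31-43. PT replicate 4 and MED-CTL replicate 4 nearly touched there, at 11.21 and 11.22. HEXIM2, an inhibitor of the elongation factor P-TEFb, read 12.60, 12.64, 12.85 and 12.51 in MED-CTL, 11.90, 12.05, 12.32 and 12.21 in PT, 11.84, 11.73, 12.22 and 11.97 in PT-G and 12.78, 12.70, 12.59 and 12.79 with p31-43. CIRBP, the cold-inducible RNA-binding protein, read 7.34, 8.00, 7.20 and 7.61 in MED-CTL, 7.17, 7.14, 6.86 and 6.54 in PT, 6.99, 7.06, 6.96 and 6.72 in PT-G and 7.45, 7.22, 7.34 and 7.77 with p31-43. The CIRBP probe was dim, and of its brighter probes the brightest differed by -0.54 and -0.56 and the next by -0.21 and -0.12. ELAC1, an endonuclease that processes tRNA, read 10.30, 10.16, 11.07 and 9.82 in MED-CTL, 8.91, 9.23, 9.24 and 9.08 in PT, 8.93, 9.20, 9.77 and 8.95 in PT-G and 10.09, 10.38, 10.26 and 10.24 with p31-43. It had the largest spread over MED-CTL arrays among the members, through replicate 3. The 24 non-members of the list, left after the 6 members low by the rule were taken off, moved both ways at a nominal p under 0.01. With PT 3 were lower and 2 higher, beside 1.88% and 1.76% of all probes. With PT-G 2 were lower and 2 higher, beside 1.51% and 1.91%. POLR3C was lower by -0.43 and -0.28, while DCP1A, the relative of DCP1B, was higher by 0.38 and 0.36, and their adjusted p-values in limma were 0.0393 and 0.0974 for PT and 0.220 and 0.125 for PT-G. TAF1A, a subunit of the RNA polymerase I initiation factor SL1, was higher by 0.36 and 0.56 with adjusted p-values of 0.116 and 0.0107.

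Cilium, centrosome and cytoskeleton were represented by 7 genes with 8 probes. MKS1, a protein of the ciliary transition zone, read 9.92, 10.31, 10.24 and 9.51 in MED-CTL, 9.46, 9.09, 8.54 and 9.16 in PT, 9.19, 9.14, 9.33 and 8.25 in PT-G and 10.23, 9.70, 9.85 and 9.60 with p31-43. Its SD was 0.37 in MED-CTL and 0.49 in PT-G. NEK3, a kinase related to mitotic NIMA, read 11.92, 12.12, 12.19 and 11.48 in MED-CTL, 11.21, 10.98, 10.94 and 11.10 in PT, 11.17, 11.04, 11.21 and 10.89 in PT-G and 12.14, 11.91, 11.60 and 11.79 with p31-43. TUBGCP3, a subunit of the gamma-tubulin complex that nucleates microtubules, read 11.37, 11.42, 11.63 and 11.40 in MED-CTL, 10.72, 10.44, 10.41 and 10.63 in PT, 10.66, 10.56, 11.23 and 10.95 in PT-G and 11.61, 11.22, 11.62 and 11.38 with p31-43. PT-G replicate 3 was the highest digest array of TUBGCP3 and lay just above the lowest p31-43 array. The remaining members of this kind were C11orf60 (IFT46, intraflagellar transport), FLJ23577 (SPEF2, a sperm flagellar protein), KIF26B (a kinesin) and BFSP1 (a lens filament protein), with mean digest differences between -0.83 and -0.64. Both other probes of SPEF2, at 5.78 and 5.83 in MED-CTL, were above background on no array of any condition, so the SPEF2 difference rests on its member probe. Among 30 non-members of the list, 5 were lower with PT and 3 with PT-G at a nominal p under 0.01, beside 1.88% and 1.51% of all probes, and none was higher. CLUAP1, MPHOSPH9 and TCHP are examples, at -0.91, -0.63 and -0.93 for PT, with adjusted p-values of 0.0515, 0.0376 and 0.210 in limma. For PT-G they were at -0.92, -0.48 and -0.85, with adjusted p-values of 0.0479, 0.133 and 0.291, so that CLUAP1 passed with PT-G and MPHOSPH9 with PT. This list was drawn up with earlier results of these data known, so its counts beside all probes are no test.

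Of 13 peroxisome biogenesis genes that were not members none passed a nominal p under 0.01 with either digest, 9 were lower and 1 was higher in both means, and their medians were -0.16 for PT and -0.16 for PT-G. DNA repair genes, listed because 1 member, C1orf176 (EXO5), is a repair exonuclease, gave 4 lower and none higher among 23 at a nominal p under 0.01 in each comparison, beside 1.88% (PT) and 1.51% (PT-G) of all probes lower. Of these POLD3 and BRCA1 passed the adjusted threshold for PT, at -0.72 and -0.50 with adjusted p-values of 0.0491 and 0.0421 in limma, and for PT-G the adjusted p-values were 0.110 and 0.0801. Both lists were drawn up with earlier results of these data known, so their counts beside all probes are no test.

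**Figure D3:**
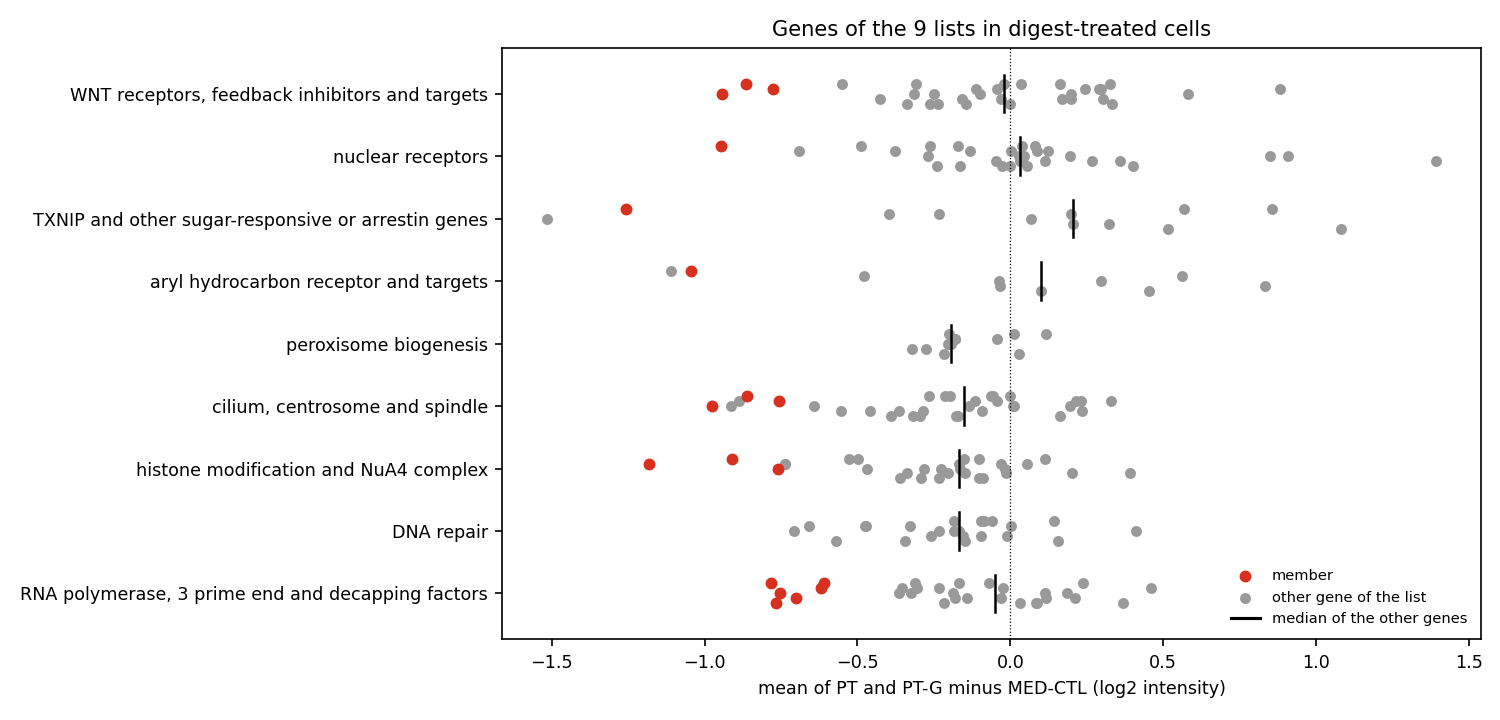
Mean of PT and PT-G minus MED-CTL (log2 intensity, x axis) of the genes measured on the 9 lists (y axis), 1 probe per gene, with the members described in red and a bar at the median of the other genes. The members lie at or under -0.6 by their choice, and the medians of the other genes lie between 0.21 and -0.19.

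Both SLC30A1 and SLC30A2, transporters that carry zinc out of the cytosol, were members. SLC30A2 (ZnT2), which moves zinc into vesicles, read 8.87, 9.03, 9.495 and 9.65 in MED-CTL, 7.97, 7.85, 8.52 and 8.26 in PT, 7.90, 7.96, 8.68 and 8.21 in PT-G and 8.94, 8.79, 9.64 and 9.65 with p31-43. Replicates 3 and 4 were higher than replicates 1 and 2 in every condition. A dimmer probe of SLC30A2 differed by -0.51 for PT and -0.55 for PT-G, also without overlap with MED-CTL. SLC30A1 (ZnT1), the exporter of the plasma membrane, differed by -0.71 and -0.67 and by -0.00 with p31-43. The serotonin transporter SLC6A4, measured by a probe printed on 10 spots, differed by -0.78, -0.83 and -0.10. CACNA2D4, an auxiliary subunit of calcium channels, read 7.70, 7.29, 7.20 and 7.40 in MED-CTL, 6.72, 7.00, 6.73 and 6.48 in PT, 6.74, 6.97, 6.68 and 6.66 in PT-G and 7.55, 7.76, 7.43 and 7.72 with p31-43. It was on the higher side after p31-43, by 0.22 ± 0.13 (SE, n = 4 arrays per group), with a nominal p of 0.116 and an adjusted p of 1.00 in limma.

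Signalling and cell cycle genes numbered 7. LRMP (IRAG2), a membrane protein of the endoplasmic reticulum best known from lymphoid cells, read 9.82, 9.57, 10.03 and 10.08 in MED-CTL, 8.70, 8.52, 8.88 and 9.08 in PT, 8.67, 8.20, 8.82 and 9.09 in PT-G and 9.45, 9.80, 9.47 and 10.24 with p31-43. PRKCQ, the protein kinase C known from T cells, read 7.68, 7.64, 7.79 and 7.61 in MED-CTL, 6.71, 6.62, 6.76 and 6.50 in PT, 6.71, 6.77, 7.04 and 6.55 in PT-G and 7.86, 7.63, 8.07 and 7.73 with p31-43. Of the T-cell and leukocyte markers, PTPRC was above background on no array, and CD3E on all 16 with means between 6.99 and 7.11 in the 4 conditions. PKMYT1, the kinase that holds CDK1 inactive, read 14.19, 14.44, 14.29 and 13.82 in MED-CTL, 13.73, 13.71, 13.35 and 13.45 in PT, 13.76, 13.70, 13.66 and 13.31 in PT-G and 14.04, 14.10, 13.83 and 13.80 with p31-43. The p31-43 difference of PKMYT1 was -0.24 ± 0.14 (SE, n = 4 arrays per group), with a nominal p of 0.114 and an adjusted p of 1.00 in limma. ADRA2A (an adrenergic receptor), ARHGAP22, DOK1 and RIPK5 (DSTYK) had mean digest differences between -0.84 and -0.64. Ubiquitin and SUMO enzymes were TRIM45, the SUMO protease SENP6, MYLIP (the ligase of the LDL receptor), TMEM129 and FBXO8, with digest differences between -0.90 and -0.63 and p31-43 differences between -0.18 and 0.25. MYLIP had the highest p31-43 difference of all members. Metabolic genes not yet named were G0S2 (an inhibitor of triglyceride lipase, -0.90 and -0.94), SESN1 (a stress-induced sestrin, -0.71 and -0.73), COQ3 (ubiquinone synthesis, -0.61 and -0.63) and the intestinal sulfotransferase CHST5 (-0.72 and -0.78). SNX19 and RUFY2 belong to membrane traffic.

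Members without an assigned role here numbered 20. LOC439949, an uncharacterised transcript, had the largest digest difference of all. It read 11.26, 11.46, 11.57 and 11.11 in MED-CTL, 9.80, 9.79, 9.84 and 10.12 in PT, 9.88, 9.88, 10.09 and 10.04 in PT-G and 11.27, 11.38, 11.28 and 11.42 with p31-43, which left 0.374 times the MED-CTL level after the digests. MGC11257 read 10.25, 10.74, 10.76 and 10.35 in MED-CTL, 9.62, 9.43, 9.70 and 9.55 in PT, 9.61, 9.39, 9.76 and 9.31 in PT-G and 10.82, 10.21, 10.49 and 10.63 with p31-43. Both probes kept the pattern of the group, with p31-43 arrays inside or next to the MED-CTL range. A brighter probe with the array name MGC11257, matched to the symbol CHLSN, differed by -0.03 for PT and -0.27 for PT-G. Its digest arrays overlapped those of MED-CTL. RP11-151A6.2 read 8.79, 8.71, 8.95 and 8.30 in MED-CTL, 7.89, 7.99, 8.08 and 8.22 in PT, 7.78, 8.01, 7.91 and 7.56 in PT-G and 8.59, 8.84, 8.54 and 8.71 with p31-43. PT replicate 4 and MED-CTL replicate 4 of this transcript were the pair nearest to an overlap. The rest were C17orf75, C21orf129 (LINC00479), FLJ13646 (CCDC121), FLJ21657 (TMEM267), FLJ40142, KARCA1 (KLHDC9), LANCL2, LOC201229, LOC254128, LOC285749, LOC644613, LOC647131, MGC13017, PRRT3, STOML1, TMEM136 (TLCD5) and NLF2, which follows. For 70 of the 80 genes a current symbol was matched.

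C3orf31 (TAMM41), a mitochondrial enzyme of cardiolipin synthesis, was a member through 1 spot. Its spot on MED-CTL replicate 2 read 16.40, was saturated and was marked as an outlier by the image analysis, and it is the only marked spot among the members. The other MED-CTL arrays read 12.92, 12.60 and 12.53, the PT arrays 12.36, 12.37, 12.34 and 12.51, the PT-G arrays 12.49, 12.37, 12.03 and 12.22 and the p31-43 arrays 12.91, 12.91, 12.55 and 12.85. With that spot the digest difference was -1.28 and the p31-43 difference -0.81, and without it they were -0.35 and 0.12. TAMM41 would then not have met the rule, and it is counted below without the spot. Another TAMM41 probe differed by -0.25 for PT and -0.42 for PT-G.

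The question put to the p31-43 arrays was whether the isolated gliadin peptide lowered the same genes as the digests. Of the 87 probes, 1 was lower and none higher at a nominal p under 0.01 (limma), beside 0.251% of all probes lower and 0.151% higher. None passed an adjusted p under 0.05, nor did any of the 40982 probes, and 2 members had a nominal p under 0.05 beside 2.15% of all probes. The probe past the threshold was NLF2 (C2CD4B), a nuclear factor known to be induced by inflammatory cytokines. NLF2 read 9.00, 9.26, 8.59 and 8.62 in MED-CTL, 8.17, 8.41, 7.83 and 8.02 in PT, 8.53, 8.53, 8.39 and 8.00 in PT-G and 8.32, 8.56, 7.50 and 7.82 with p31-43. All 4 p31-43 arrays lay under all MED-CTL arrays, the only such case among the members (0.888% of all probes), and replicates 3 and 4 of p31-43 were the lowest of the gene. The difference was -0.82 ± 0.22 (SE, n = 4 arrays per group), with a nominal p of 0.00275 and an adjusted p of 1.00 in limma. Without MED-CTL replicate 2, p31-43 replicate 3 or p31-43 replicate 4, the difference was -0.69, -0.63 or -0.74 and the nominal p rose above 0.01. No member had all p31-43 arrays above all MED-CTL arrays (0.483% of all probes).

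In 56 of the 87 probes the p31-43 mean lay under that of MED-CTL and in 31 above it. The p31-43 mean was nearer to MED-CTL than to the mean of the digests in 86 of 87, the exception being NLF2. The rule placed the digest means at least 0.6 log2 units under MED-CTL. Over all probes tested the p31-43 difference had quartiles of -0.083 and 0.080, so this count follows largely from the choice of the members. All 4 p31-43 arrays lay above all 8 digest arrays in 70 probes, beside 1.57% of all probes, a comparison in which the digest arrays are those of the rule. The others included CYP1A1, NOXO1, SUV420H1, UBTF, JMJD5, TUBGCP3, POLR3B, SESN1 and SLC30A1. On the log2 scale the p31-43 difference amounted to a median of 4.13% of the digest difference, with quartiles of -6.93% and 13.0%. The digest difference in this ratio was chosen by the rule for its size.

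PT-G and PT differ by the gliadin in the digest. All members had to lie below MED-CTL in both, which limits how far the digests can differ in them by choice. The median difference between PT-G and PT was 0.014 log2 units over the 87 probes and 0.0095 over all probes, with 48 members higher and 39 lower in PT-G. At a nominal p under 0.01 (limma) no member was lower and none higher, beside 0.0342% and 0.0561% of all probes, and no probe of the array passed an adjusted p under 0.05. At a nominal p under 0.05 there was 1 member, beside 0.761% of all probes. The difference of TUBGCP3 was 0.30 ± 0.14 (SE, n = 4 arrays per group) with a nominal p of 0.0530 in limma, and TXNIP was lower in PT-G by 0.26 (difference -0.26 ± 0.14, nominal p 0.0818). RP11-151A6.2 and KIAA1285 (ZNF777), also among the 5 smallest p-values, differed by -0.23 and 0.23. No member had PT-G arrays entirely above PT arrays (0.425% of all probes) or entirely below them (0.237%). For 79 of 87 probes the means of both digests were within 0.2 log2 units of each other, and the differences of all lay between -0.26 and 0.30. The quartiles were -0.063 and 0.094 over the members and -0.065 and 0.086 over all probes. The closeness of the digests was thus not particular to the members.

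Within the runs, the digest arrays lay under the MED-CTL array of the same run in every member with a value, as the rule fixes. The size varied, with median differences within runs 1 to 4 of -0.88, -0.78, -0.81 and -0.66. For p31-43 they were -0.063, -0.029, -0.16 and 0.12, with 53 of 86, 56 of 87, 61 of 87 and 24 of 87 members lower. Run 4 thus stood on the other side of 0 from the other runs. TXNIP, WNT6, CYP1A1, JMJD5 (KDM8), CHST5, NLF2, LOC285749 and PKMYT1 were the 8 members lower after p31-43 in all 4 runs, and ARHGAP22, LANCL2 and CACNA2D4 the 3 that were higher in all 4. The share of all probes lower or higher in all 4 runs was not computed, and MED-CTL was the higher group by choice. These counts therefore show no consistent effect of the peptide on the genes named.

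**Figure D4:**
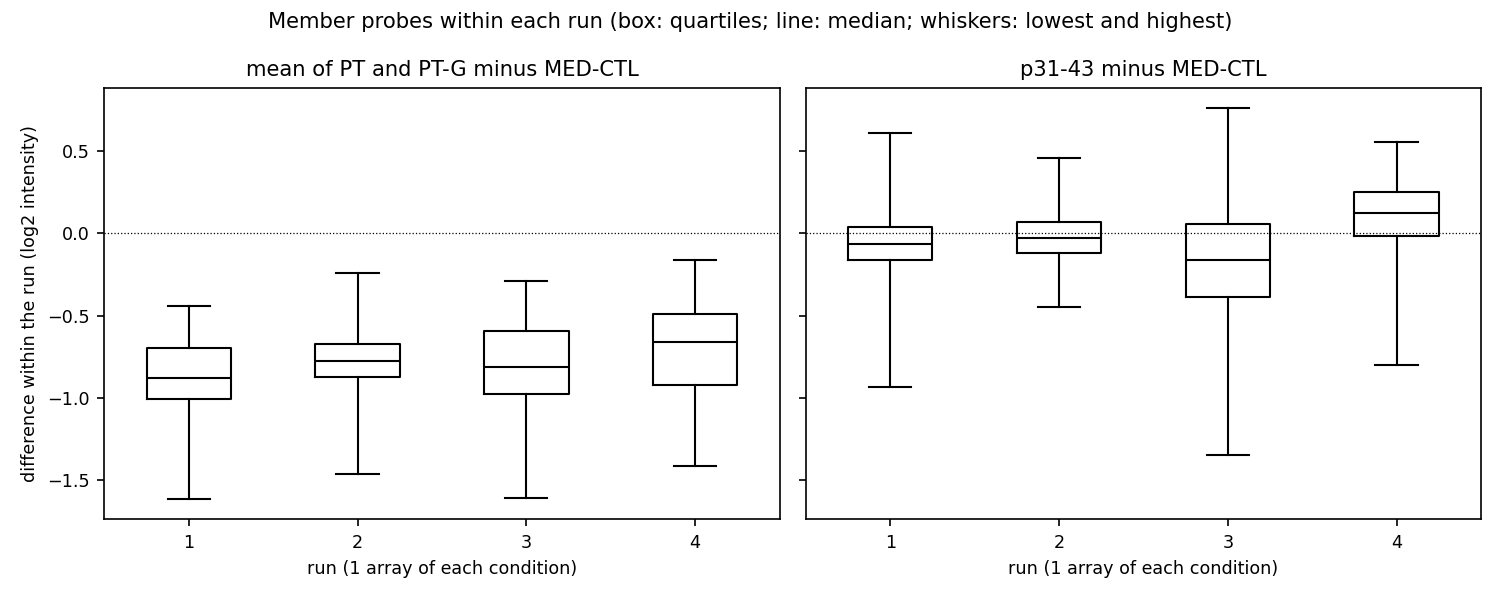
Differences to the MED-CTL array of the same run (log2 intensity, y axis) of the member probes in runs 1 to 4 (x axis), for the mean of PT and PT-G (left) and for p31-43 (right). Every digest difference is under 0 by the choice of the members, and the p31-43 medians lie between -0.16 in run 3 and 0.12 in run 4.

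Other probes of the same genes, which the rule did not choose, give a second reading of 36 member genes. Of 47 such probes, 45 were above background on all MED-CTL arrays. Both digest means lay under MED-CTL in 38 of these 45, beside 43.4% of the 27103 probes above background on all MED-CTL arrays. A mean difference of at most -0.6 was reached by 7, beside 1.25%, and 2 had no overlap with MED-CTL (SLC30A2 and TRIM45), beside 1.45%. These shares include the members, and the other probes measure genes chosen in the same comparison. A further probe that met the whole rule was itself a member, which limits the counts and the median of the other probes by choice. The median difference of the 45 was -0.34, beside -0.76 over the member probes, which were chosen for their size. The 5 at or above 0 were probes of DIDO1, WNT6, SUV420H1 (2 probes) and SNX19. Differences as large as those of the member probe recurred for TUBGCP3, whose other probes were at -0.96 and -0.97 for PT and -0.61 and -0.56 for PT-G, and for C17orf75 at -0.77 and -0.73. Among the 7 genes with 2 member probes each were AXIN2, KIAA1285, NEK3, NR2F2, RCCD1 and UBTF.

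**Figure D5:**
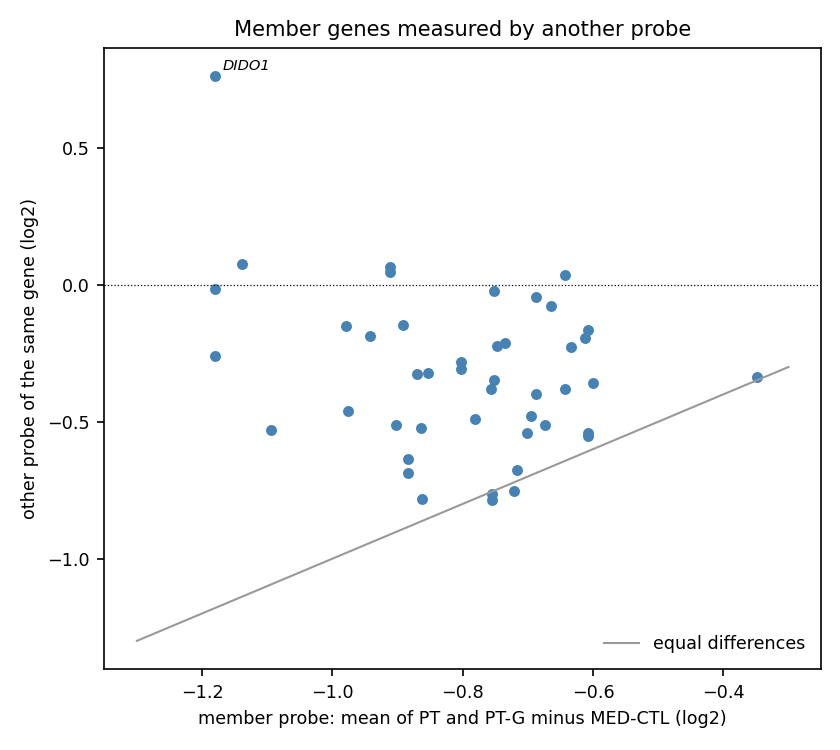
Mean of PT and PT-G minus MED-CTL (log2 units) of 45 other probes of member genes (y axis) against that of the member probe of the gene (x axis), with a line where both are equal. The point at -0.35 on the x axis is TAMM41 without its marked spot. Most points lie above the line and under 0, and a DIDO1 probe at 0.76 is the highest.

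At the threshold the members did not stand apart from their neighbours. The last probes inside it were PKMYT1 at -0.6002, TMEM136 (TLCD5) at -0.604 and FLJ21657 (TMEM267) at -0.606. The first outside were MGC3032 at -0.5995, ANKRD49 at -0.597 and SRP68 at -0.591. In the rule's values 10 members were at or under -1, TAMM41 with its marked spot among them.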

How the data were processed

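RNA of Caco-2 cells was hybridised to 16 single-colour Agilent arrays, 4 per condition. The deposited scanner files hold intensity per spot from Feature Extraction 9.5.3.1, and the table deposited by the authors holds log2 values. Quantile normalization of log2 median spot intensity over all spots, without background correction, gave those log2 values to within 5e-09. The labels' processing notes name limma. Spots marked as outliers by the image analysis (1774 in all) were left out, spots of a probe were averaged, and a probe was tested when each group kept at least 3 arrays for it, as 40982 of 41000 did. A linear model with the 4 groups was fitted in limma 3.58.1 (R 4.3.3; 12 residual and 1.9 prior degrees of freedom), with Benjamini-Hochberg adjustment over all probes tested. Calls were made at a nominal p under 0.01, the threshold of the study's methods, and at an adjusted p under 0.05. The script was tested on simulated data. The number of arrays limits the precision, and all arrays come from 1 cell line.

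The members and the gene lists were chosen with earlier results of these data known. Members are named apart from a few genes that are not reported here, which are kept in counts and ranges over the members. Values of every array are given for the 15 genes with the largest digest difference, for members on the lists, and for the 5 members with the smallest p-values between p31-43 and MED-CTL and between PT-G and PT. Of several member probes the brightest in MED-CTL is described. Functional groups were assigned by hand. Runs were read from a date code that the scanner files carry. Replicate numbers of p31-43 and MED-CTL deviated together (r of deviations from group means over probes 0.307, 0.261, 0.653 and 0.706), more so by run (0.538, 0.684, 0.653 and 0.706), where each array matched its own run best, unlike numbers 1 and 2. Fits with the number and with the run as a block were alternatives. Other alternatives were the normalization, the background correction, outlier marks, a filter on dim probes, run and slide as blocks, fewer groups, a variance trend with intensity, and the omission of single arrays.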

Additional observations from a re-analysis of the deposited data

Results flagged for a closer look

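Among 127 groups of 4 arrays of the 32 genes described with every array, 4 held an array far from the other 3 by Dixon's ratio. Chance gives about 1 in 20 such groups. PT replicate 4 of LOC439949 read 10.12 log2 units beside 9.79 to 9.84. PT replicate 4 of C3orf31 (TAMM41) read 12.51 beside 12.34 to 12.37. For DIDO1, p31-43 replicate 1 read 11.29 beside 10.81 to 10.88. UBTF read 8.59 in PT-G replicate 4 beside 9.78 to 9.98, and replicate 4 was the lowest array of UBTF in the other conditions too.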

How the results depend on the processing

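The digest difference is negative by the choice of the members, and its median lay between -0.85 and -0.71 (leave-one-out -0.82 to -0.73). The number of probes that met the rule was 56 with median scaling (55 of them members), 179 with background-subtracted signal, 264 within the early runs (1 and 2) and 149 within the late runs (3 and 4). Leaving out 1 array it lay between 78 and 217, with 69 to 85 members among them, and was 217 without MED-CTL replicate 4, 161 without PT-G replicate 3 and 145 without MED-CTL replicate 3. Median scaling moved the median of all probes to -0.109 between PT and MED-CTL, and the members' p31-43 median to 0.061 where that of all probes was -0.082. Otherwise the p31-43 median lay between -0.072 and 0.011 with 1 array left out. The count of members lower after p31-43 at a nominal p under 0.01 was 2 with slide as a block and 0 when only the 2 groups compared were fitted, and 0 to 2 with 1 array left out. NLF2 then had a nominal p of 0.0134 in the fit of 2 groups, and 0.0115, 0.0108 and 0.0102 without MED-CTL replicate 2, p31-43 replicate 3 and p31-43 replicate 4. PKMYT1 had 0.00649 with slide as a block, and WNT6 0.00791 without MED-CTL replicate 1 (limma, adjusted p 0.243 and 0.998). Members with all p31-43 arrays below MED-CTL were 0 with median scaling and 1 to 4 with 1 array left out, and those above were 0 to 1. Without p31-43 replicate 3 the difference of CYP1A1 was -0.19, and without replicate 1 it was -0.72. Between PT-G and PT, members at a nominal p under 0.01 numbered 0 to 1 in each direction with 1 array left out. PT-G lay entirely below PT in 1 member with background-subtracted signal and in 0 to 3 with 1 array left out, and entirely above in 1 with median scaling, 1 with background-subtracted signal and 0 to 2 with 1 array left out. With the replicate block the counts of members were 1 for p31-43 and 0 for PT-G against PT, and it changed no other call. For PT-G and PT the numbers correlated at 0.172, 0.696, 0.0439 and 0.646, and for 1 and 3 the best match was another array. The run block gave the same counts as the replicate block. Of 672 values of the 32 genes 662 kept their side of the threshold and size. A change of sign was counted only for NLF2, the gene past the threshold, and NLF2 kept its sign. Differences near 0 did change sign, such as that of ELAC1, between -0.27 and 0.15 with 1 array left out. The cause of these changes was not tested.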

Other observations

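Because SLC30A1 and SLC30A2 were both members, other zinc genes were examined, a choice made after the members' values were seen. SLC30A1 is known to be induced by zinc together with the metallothioneins, which bind zinc in the cytosol. The 11 metallothionein genes above background in MED-CTL differed from it by -0.15 to 0.12 log2 units in PT and by -0.52 to -0.11 in PT-G, and none reached a nominal p under 0.05 in limma. The other 7 genes of the SLC30 family above background differed by -0.43 to 0.07 in PT and by -0.30 to 0.21 in PT-G, with none at a nominal p under 0.01 and 1, SLC30A10, under 0.05.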
